A study of Mus musculus with 18 samples.

Results

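Snai1, Snai2, Twist1, Twist2, Zeb1 and Zeb2 encode the transcription factors that are best known for driving the epithelial-mesenchymal transition (EMT), the change by which epithelial cells loosen their junctions and take on the shape and movement of mesenchymal cells. The 6 genes were taken by symbol, and each had a row of its own among the 54752 genes of the count table. They were followed in 18 mouse RNA sequencing libraries, 3 in each of 6 groups. HM-1 (strain label B6C3F1) and ID8 (strain label C57BL6) are mouse ovarian cancer cell lines. Each line was sequenced in culture as control cells and as cells labelled Cd276KO, for a knockout of Cd276, which encodes the B7 family protein B7-H3. HM-1 cells of both kinds were also injected into the skin of B6C3F1 mice, and the resulting control tumors and tumors labelled Cd276KO were taken on day 10, so these libraries hold cells of the host as well. No other treatment is given for any group. Libraries of a group are labelled as biological replicates, with no clone, culture or mouse named, and a p-value here speaks only for the spread among these libraries, which may be technical.

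On GRCm38, Snai1 (ENSMUSG00000042821.7) lies at chr2:167538195-167542814 and Snai2 (ENSMUSG00000022676.7) at chr16:14705852-14709385, both on the plus strand. Twist1 (ENSMUSG00000035799.6) lies at chr12:33957671-33959829 and Twist2 (ENSMUSG00000007805.4) at chr1:91801461-91848028, also on the plus strand. Zeb1 (ENSMUSG00000024238.15) lies at chr18:5591860-5775467 on the plus strand and Zeb2 (ENSMUSG00000026872.17) at chr2:44983632-45117395 on the minus strand. All 6 are annotated as protein-coding. Genes on the opposite strand overlap 3 of them: Gm29100 shares 1477 exon bases with Twist2, Zeb2os 653 with Zeb2 and Gm10125 198 with Zeb1. The strand setting of the counting is not given in the sources used here, so reads from those stretches cannot be told apart. The overlapping genes themselves had at most 108, 63 and 25 counts in any library.

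Snail, Twist and Zeb proteins bind E-box sequences in the DNA. Snai1 and Snai2 (Slug) encode zinc finger repressors, Zeb1 and Zeb2 encode large zinc finger and homeodomain repressors, and Twist1 and Twist2 encode basic helix-loop-helix factors that bind as dimers with E-proteins. Their classical repressed target is Cdh1, the gene of E-cadherin, and genes such as Cdh2 (N-cadherin), Vim (vimentin) and Fn1 (fibronectin) usually rise during the transition. In tissue, fibroblasts, endothelial cells and macrophages also use several of these factors.

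The E-box that Snail and Zeb proteins prefer is CACCTG, or CAGGTG on the other strand. The 250 bases before the start site are shown for Snai1, the 1 factor with a match among the 4 whose windows were searched (Snai1, Twist1, Twist2 and Zeb2), and for Crb3 and Epcam, junction genes with several matches. The sequences are from RefSeq on GRCm38.p6, written 5′ to 3′ along the gene, and capitals mark each match.
Snai1 (chr2:167537945-167538194, plus strand): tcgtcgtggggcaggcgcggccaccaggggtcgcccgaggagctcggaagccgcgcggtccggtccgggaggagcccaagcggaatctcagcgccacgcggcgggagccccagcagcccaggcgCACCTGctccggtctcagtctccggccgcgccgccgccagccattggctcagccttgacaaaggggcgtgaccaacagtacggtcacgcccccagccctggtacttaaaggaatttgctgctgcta
Crb3 (chr17:57061951-57062200, plus strand): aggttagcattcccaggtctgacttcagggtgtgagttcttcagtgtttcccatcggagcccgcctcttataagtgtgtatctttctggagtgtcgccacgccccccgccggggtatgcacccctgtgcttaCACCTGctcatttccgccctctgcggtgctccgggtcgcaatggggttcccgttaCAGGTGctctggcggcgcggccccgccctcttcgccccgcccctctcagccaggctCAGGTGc
Epcam (chr17:87635729-87635978, plus strand): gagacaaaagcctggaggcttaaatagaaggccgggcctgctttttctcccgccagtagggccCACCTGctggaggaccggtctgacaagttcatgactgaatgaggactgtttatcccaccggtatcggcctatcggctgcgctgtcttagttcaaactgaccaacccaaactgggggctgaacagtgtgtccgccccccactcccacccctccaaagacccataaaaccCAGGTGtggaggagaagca
The Snai1 window held 1 match, the Crb3 window 3 and the Epcam window 2. Crb3 and Epcam were picked for their matches, and the windows of the junction genes Cldn3 and Dsp held 0. CACCTG on either strand occurred in 17.2% of all 32851 promoter windows of this length, and in 10 of 18 windows (55.6%) of a list of epithelial junction and keratin genes. Every listed promoter counts in the 17.2%, but only the first per gene in the list, where 18 of 26 genes had a window. The choice matters: for Cldn7 1 window held 0 matches and another 2. The related CATCTG, on either strand, was in 14.4% of all windows and in none of the 4 factor windows. A match is a description of the letters and does not show binding.

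Total counts ran from 17349082 to 30959773 per library, and levels are given as CPM, the count of a gene per 1000000 counts of its library. Cd276 RNA was set beside the labels, but gene-level counts do not check a knockout that leaves the RNA in place. It was lower in all 3 HM-1 cultures labelled Cd276KO (46.6 ± 1.53 CPM against 86.4 ± 10.6, SD, n = 3 per group). The HM-1 culture groups did not overlap for 53.0% of all genes tested. In ID8 cells Cd276 was at 19.4 ± 1.45 against 20.9 ± 0.299 CPM, with overlapping values and an edgeR adjusted p of 0.692. In tumors it was 86.6 ± 12.2 against 122 ± 18.1 CPM (edgeR adjusted p = 0.105), so groups are named here by their labels. HM-1 control library 1 and control tumor 3 stood apart from their groups, with chi-square values per gene of 63.9 to 65.0 and 81.3 to 134 against the other libraries, where those others differed by 1.57 and 41.1. For the 6 factors, results that rest on either are given with and without it. Tests of other named genes are given only with both libraries included. Of 6 markers of ovarian surface or mesothelial epithelium, 5 had any read in HM-1 control cells and 6 in ID8 controls, with Upk3b at 0 in HM-1 control cells. A mean of at least 1 CPM was reached by 4 and 6 of them. Epcam was at 0 in every HM-1 culture.

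**Figure D1:**
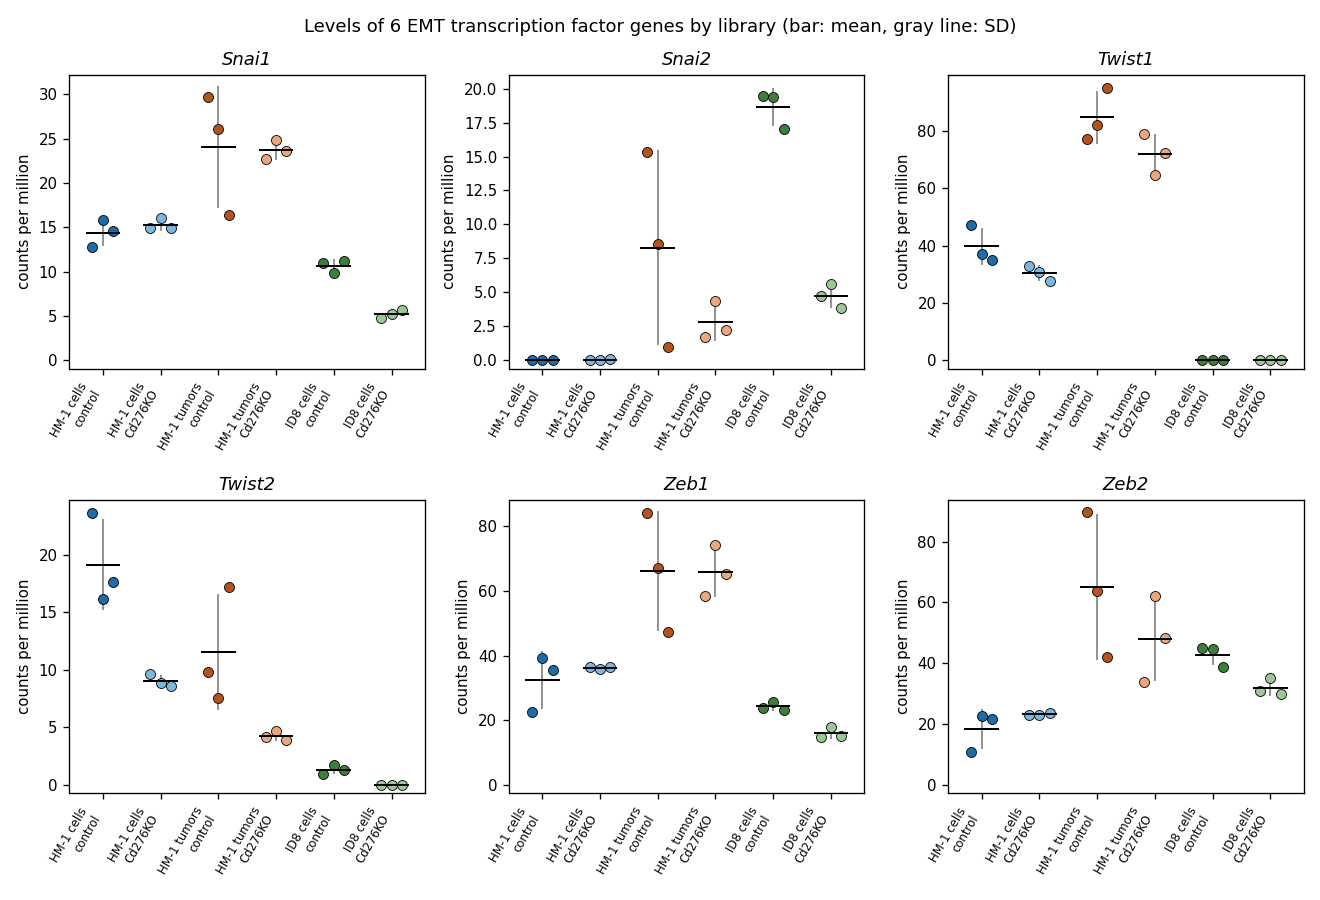
Levels of the 6 factors in CPM (vertical axis, starting at 0) for each of the 18 libraries, with 3 points, their mean (bar) and SD (gray line) for each group on the horizontal axis. Twist1 is at 0 in all ID8 libraries, Snai2 is at or next to 0 in all HM-1 cultures, and 4 of the 6 reach their highest group mean in control tumors.

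The lines differed in which factors they expressed. Snai1 was detected everywhere. It stood at 12.8, 15.8 and 14.5 CPM in HM-1 control libraries 1 to 3 and at 14.9, 16.0 and 14.9 CPM in those labelled Cd276KO. In ID8 cells it was at 10.9, 9.79 and 11.2 CPM in controls and at 4.74, 5.23 and 5.68 CPM under the label. Tumors had the most, with 29.7, 26.1 and 16.4 CPM in controls and 22.7, 24.9 and 23.6 CPM under the label. The order of group means was therefore tumors, HM-1 cells, ID8 controls and ID8 cells labelled Cd276KO, with overlap only between the 2 tumor groups and between the 2 HM-1 culture groups. Most genes tested also had groups that did not overlap: 64.3% between the ID8 groups and 67.2% between control cells of the lines. For tumors against HM-1 cells the shares were 55.8% in controls and 78.8% under the label.

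Snai2 was expressed in ID8 cells and tumors. No read was counted in HM-1 control cells and 1 in HM-1 cells labelled Cd276KO, in library 3. ID8 controls had 19.5, 19.4 and 17.0 CPM and ID8 cells labelled Cd276KO 4.74, 5.63 and 3.81 CPM. Control tumors spread from 15.3 and 8.54 CPM in tumors 1 and 2 to 0.991 CPM in tumor 3, and tumors labelled Cd276KO had 1.72, 4.34 and 2.25 CPM. The lowest of all 6 tumors was thus a control.

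Twist1 showed the reverse distribution between lines. It had 47.1, 36.9 and 35.1 CPM in HM-1 controls and 33.0, 30.8 and 27.5 CPM in HM-1 cells labelled Cd276KO. Control tumors had 77.2, 82.2 and 94.9 CPM and tumors labelled Cd276KO 78.9, 64.8 and 72.3 CPM. None of the 6 ID8 libraries had a read. The level that a count of 0 over ID8 controls allows is up to 0.0354 CPM (3 counts over the group, counting error only).

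Twist2 was the factor with its highest group mean in cultured HM-1 cells. HM-1 controls had 23.6, 16.2 and 17.6 CPM and HM-1 cells labelled Cd276KO 9.64, 8.86 and 8.61 CPM. ID8 controls had 0.947, 1.71 and 1.25 CPM, and no read was counted under the label. In tumors the values were 9.79, 7.55 and 17.2 CPM in controls and 4.12, 4.64 and 3.92 CPM under the label. Within each of the 3 sample types, every library labelled Cd276KO lay below every control. Groups did not overlap, in either direction, for 53.0% of all genes tested in HM-1 cells, 64.3% in ID8 cells and 34.8% in tumors.

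Zeb1 and Zeb2 were detected in all 18 libraries. Zeb1 was at 22.5, 39.3 and 35.7 CPM in HM-1 controls, 36.4, 35.8 and 36.5 CPM in HM-1 cells labelled Cd276KO, 23.9, 25.8 and 23.3 CPM in ID8 controls and 14.9, 17.9 and 15.2 CPM in their Cd276KO counterparts. In control tumors Zeb1 was at 84.3, 67.2 and 47.2 CPM, and tumors labelled Cd276KO had 58.5, 74.1 and 65.3 CPM. HM-1 control library 1 was the lowest of the HM-1 cultures, and the ID8 libraries labelled Cd276KO were the lowest of all.

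Zeb2 was at 10.8, 22.8 and 21.6 CPM in HM-1 controls and 23.0, 22.9 and 23.6 CPM in HM-1 cells labelled Cd276KO. ID8 cells had more, with 45.2, 44.5 and 38.8 CPM in controls and 30.9, 35.2 and 29.9 CPM under the label. In tumors Zeb2 was at 89.8, 63.6 and 41.9 CPM in controls and at 33.9, 62.0 and 48.4 CPM under the label. Library 1 of the HM-1 controls again stood below the other cultures.

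Scaled by the length of their exons, to make levels of different genes more comparable, the factors made up different mixtures in the lines. The shares depend on the length used. In HM-1 control cells the length-scaled levels of the 6 summed to 43.4 ± 3.28 CPM per kilobase, of which Twist1 was 56.0%, Snai1 20.6%, Twist2 13.8%, Zeb1 7.41% and Zeb2 2.17%. ID8 control cells had a sum of 20.7 ± 0.678 CPM per kilobase, of which Snai2 was 44.5%, Snai1 31.8%, Zeb1 11.4%, Zeb2 10.3% and Twist2 1.99%. In ID8 cells labelled Cd276KO the sum was 8.72 ± 0.693 CPM per kilobase and Snai1 had the largest share, 37.1%, ahead of Snai2 at 26.7%, while Zeb1 (17.5 to 18.3% over the libraries) and Zeb2 (17.9 to 18.7%) overlapped. Tumors summed to 84.4 ± 4.24 CPM per kilobase in controls and 70.4 ± 1.49 under the label, with Twist1 at 62.0% and 62.8%. With the longest transcript in place of all exons as the length, the order in ID8 cells labelled Cd276KO changed, with Zeb2 first at 29.7% and Snai1 at 27.4%. In ID8 controls Zeb2 then stood above Zeb1, at 18.6% and 16.6%, and in HM-1 controls Zeb1 and Zeb2 had 11.7% and 4.21%, with the order unchanged. In control tumors Zeb2 moved from rank 6 (3.83%) to rank 4 (7.48%), with Twist1 still first at 55.8%.

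**Figure D2:**
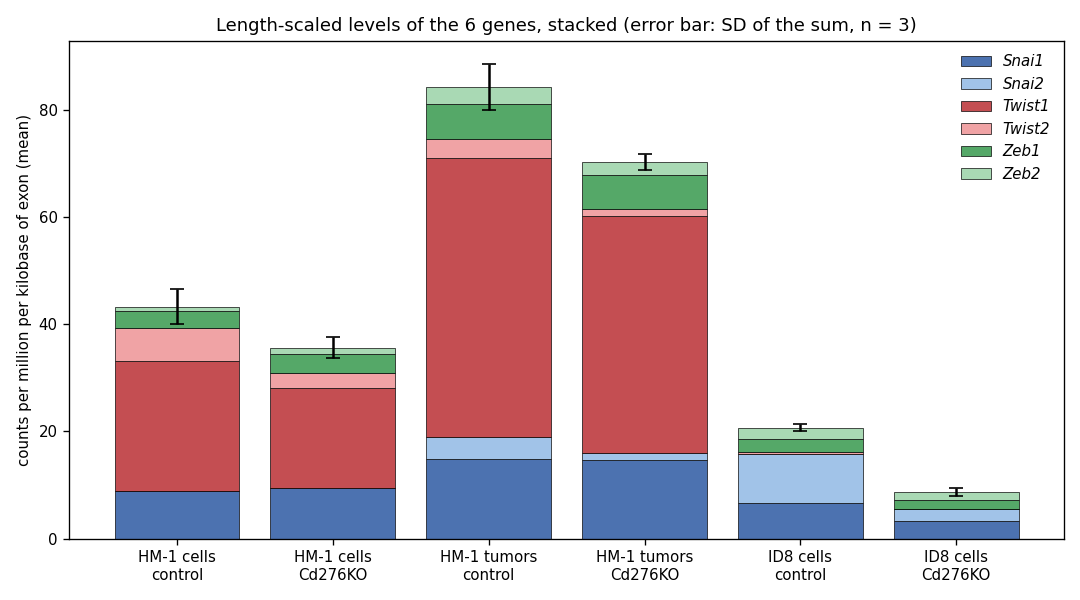
Stacked length-scaled levels of the 6 factors (vertical axis, mean CPM per kilobase of exon, from 0) in the 6 groups (horizontal axis), with the SD of the sum over 3 libraries as the error bar. Twist1 is the largest block in all HM-1 cells and tumors and absent from ID8 cells, where Snai2 and Snai1 are the largest blocks in controls and the whole bar is lower under the label, 8.72 against 20.7.

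The first comparison asked how control cells of the 2 lines differ. Of the 6 factors, 2 were higher in ID8 and 3 lower at an edgeR quasi-likelihood adjusted p under 0.05 (Benjamini-Hochberg over all genes tested), where 58.3% of all 13732 genes tested were called, 28.8% higher and 29.6% lower. The median log2 fold change of the 6 was -0.47, against -0.01 for all genes. Twist1 was at least 1121-fold lower in ID8 cells (2596 counts in HM-1 controls against 0) and Snai2 at least 414-fold higher (1583 counts against 0). Twist2 was lower by a log2 fold change of -3.90 (SE 0.25, edgeR adjusted p = 4.47e-06) and Zeb2 higher by 1.18 (SE 0.24, edgeR adjusted p = 0.00359). Snai1 fell by 0.47 on the log2 scale in ID8 against HM-1 (SE 0.12, edgeR adjusted p = 0.00842). Zeb1 did not pass, with -0.46 (SE 0.18, edgeR adjusted p = 0.0650), or -0.66 (edgeR adjusted p = 2.72e-07) without HM-1 control library 1, where its level was lowest.

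Readout genes of both kinds differed between the lines. ID8 controls had both more Cdh1 (9.97 ± 0.744 against 0.116 ± 0.0836 CPM in HM-1 controls) and more Cdh2 (71.9 ± 2.69 against 0.147 ± 0.0294 CPM). Vim was lower in ID8 controls, at 2492 ± 162 against 5589 ± 324 CPM, a log2 fold change of -1.21 (SE 0.11, edgeR adjusted p = 3.39e-05). Fn1 was 1566 ± 138 against 1277 ± 534 CPM and was not called (edgeR adjusted p = 0.476). Of 20 tested mesenchymal target genes, 13 were higher and 5 lower in ID8 controls, and of 17 tested epithelial junction and keratin genes 8 were higher and 7 lower. Among other transcription factors linked to EMT, 3 of 15 tested were higher and 7 lower in ID8. Of all genes tested, 28.8% were called higher and 29.6% lower. Prrx2, a mesenchymal homeobox gene, had 18.1 ± 2.71 CPM in HM-1 controls and 0.0127 ± 0.0219 CPM in ID8, where Foxc1, a forkhead factor gene, had 7.54 ± 0.545 CPM with no read in HM-1 controls.

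**Figure D3:**
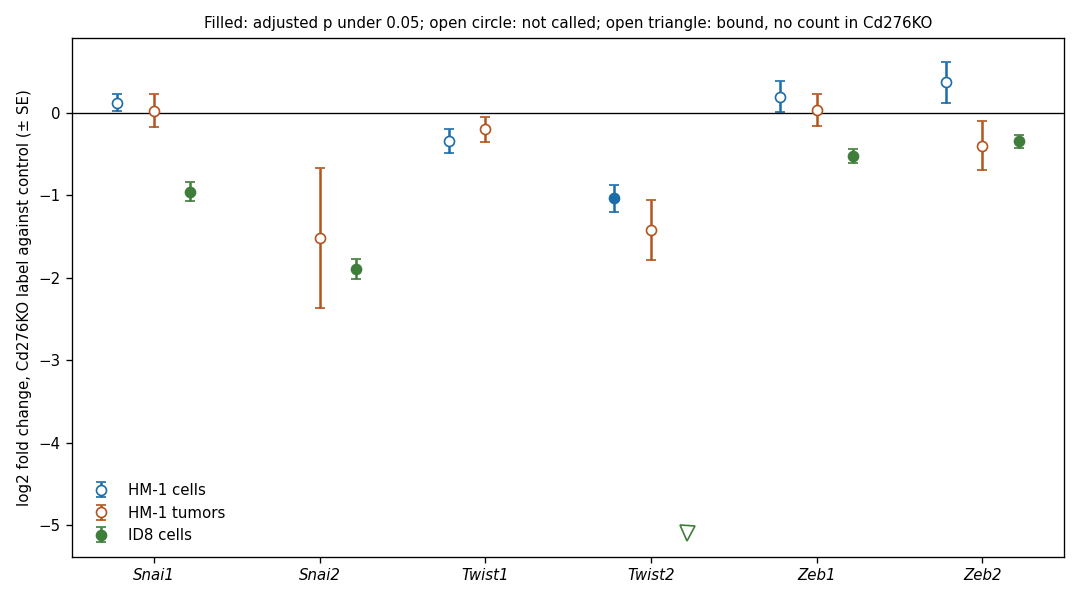
Log2 fold change of each factor (horizontal axis) in libraries labelled Cd276KO against controls (vertical axis, ± SE), in HM-1 cells, HM-1 tumors and ID8 cells. Filled points passed the adjusted threshold and open circles did not, and the triangle is the bound for Twist2 in ID8 cells, where no read was counted under the label. All ID8 points lie below 0, and Twist2 is below 0 in each of the 3.

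In ID8 cells, all 5 expressed factors were lower under the Cd276KO label (of all 12932 genes tested, 31.3% were called lower, 29.4% higher and 60.7% in all). Their median log2 fold change was -0.95, against -0.01 for all genes. Twist2, from 112 counts in controls to 0, was at least 34.1-fold lower. Snai2 fell by 1.89 on the log2 scale (SE 0.12, edgeR adjusted p = 2.28e-12), a 3.71-fold drop, and Snai1 fell by 0.95 (SE 0.12, edgeR adjusted p = 2.07e-07). Smaller declines were seen for Zeb1, which fell by 0.53 (SE 0.08, edgeR adjusted p = 1.12e-05), and for Zeb2, which fell by 0.34 (SE 0.08, edgeR adjusted p = 0.000493). Zeb2 lost its call when all 18 libraries were fitted together (edgeR adjusted p = 0.360). Cd276 RNA itself was not called lower in these libraries, as given above, which does not check the knockout.

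Mesenchymal target genes were also lower in ID8 cells under the label, 15 of 19 tested, with 2 higher and a median log2 fold change of -1.14. Of all genes tested, 31.3% were called lower and 29.4% higher. Col5a2, a fibrillar collagen gene, went from 173 ± 5.68 to 0.773 ± 0.139 CPM and Fbn1, the fibrillin gene, from 8.49 ± 1.08 to 0.254 ± 0.0668 CPM. Fn1 fell from 1566 ± 138 to 702 ± 108 CPM. Vim did not differ beyond its spread (2492 ± 162 and 2496 ± 138 CPM, edgeR adjusted p = 0.313), and Cdh2 rose by 0.39 on the log2 scale, between 71.9 ± 2.69 CPM in controls and 89.1 ± 1.59 CPM under the label (edgeR adjusted p = 3.45e-06). Markers of fibroblasts were also summed, although such a sum cannot tell cells of the line from other cells. In both groups only 4 of 8 had a mean of at least 1 CPM. In the controls 7 of 8 had any read, with Lum at 0 and a sum of 505 to 569 CPM. Under the label 6 of 8 did, with Lum and Mfap5 at 0 and a sum of 373 to 388 CPM. Whether this sum has a part in the differences was not tested.

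Cdh1, the target that these factors are known to repress, was lower and not higher where they were lower. It went from 10.3, 9.11 and 10.5 CPM in ID8 controls to 2.17, 1.99 and 1.82 CPM under the label, a log2 fold change of -2.24 (SE 0.14, edgeR adjusted p = 2.03e-12). Other junction genes moved the other way. Cldn3, a claudin gene of tight junctions, rose from 6.10 ± 1.38 to 58.2 ± 2.22 CPM, and Dsp, the desmoplakin gene of desmosomes, from 9.97 ± 0.493 to 33.5 ± 0.491 CPM. Over the list, 6 of 15 tested junction and keratin genes were higher, 3 lower and 6 not called. Of all genes tested, 29.4% were called higher and 31.3% lower. Epcam stayed low, at 0.513 ± 0.0940 and 0.597 ± 0.207 CPM, and Crb3, whose promoter is shown above, had no read in any ID8 library.

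Genes that act with or above these factors were called in both directions in ID8 cells. Of all genes tested there, 29.4% were called higher and 31.3% lower. Of 7 tested epithelial transcription and splicing factors, 4 were higher and 2 lower under the label. Grhl1, a grainyhead factor gene, rose from 0.685 ± 0.0337 to 2.33 ± 0.410 CPM. Among 24 tested corepressors and E-protein partners, 13 were higher and 4 lower, and Id1 and Id3, whose products sequester E-proteins away from Twist factors, rose from 45.3 ± 2.21 to 109 ± 5.68 CPM and from 23.6 ± 3.02 to 73.9 ± 3.44 CPM. Of 13 other EMT-associated transcription factors, 4 were higher and 5 lower: Hmga2, a chromatin architecture gene, rose from 109 ± 13.8 to 285 ± 12.2 CPM, and Tcf4, an E-protein gene, fell from 29.6 ± 0.826 to 14.1 ± 0.855 CPM. Upstream inducers were lower in 14 and higher in 8 of 26 tested, with the ligand genes Tgfb2 (56.6 ± 1.05 to 24.7 ± 1.74 CPM), Bmp2 (52.2 ± 2.32 to 18.9 ± 2.46 CPM) and Wnt5a (66.3 ± 2.13 to 22.4 ± 0.599 CPM) all lower.

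**Figure D4:**
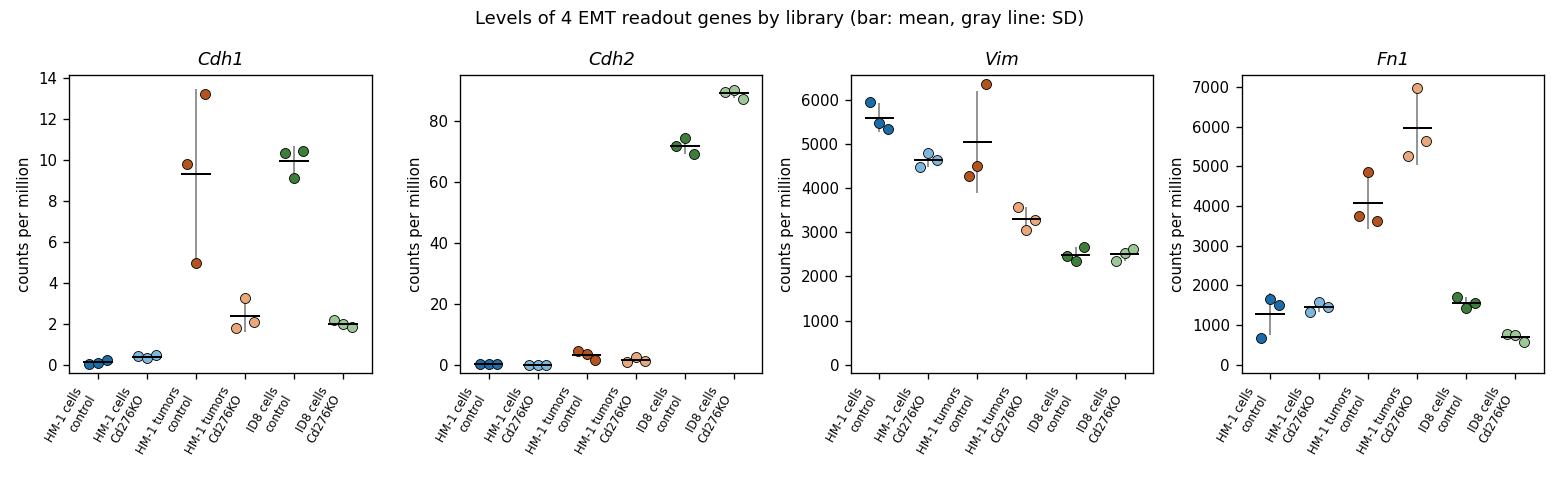
Levels of the EMT readout genes Cdh1, Cdh2, Vim and Fn1 in CPM (vertical axes, from 0) in each library of the 6 groups (horizontal axis), with the mean (bar) and SD (gray line). Cdh1 is near 0 in HM-1 cultures and lower under the label in ID8 cells. Its tumor groups do not overlap, as for 34.8% of all genes tested in tumors. Cdh2 is high only in ID8 cells among these 6 groups.

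In HM-1 cells, 1 of 5 tested factors changed under the label (of all 12457 genes tested, 27.7% were called, 11.6% higher and 16.1% lower). Twist2 fell by 1.04 on the log2 scale (SE 0.16, edgeR adjusted p = 0.00492), or by 0.84 without HM-1 control library 1 (edgeR adjusted p = 1.08e-10). It was called in all 13 alternative analyses. Twist1 had a log2 fold change of -0.34 (SE 0.14, edgeR adjusted p = 0.116). Its groups did not overlap, as for 53% of all genes tested. Without HM-1 control library 1 its value was smaller, -0.19, and called (edgeR adjusted p = 0.0103). Snai1, Zeb1 and Zeb2 had log2 fold changes of 0.13, 0.20 and 0.37 with edgeR adjusted p-values of 0.376, 0.463 and 0.304. The values for Zeb1 and Zeb2 were 0.0028 and 0.12 without HM-1 control library 1 (edgeR adjusted p = 0.972 and 0.134), so most of their size rested on that library. The median of the 5 was 0.13, against -0.01 for all genes.

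Among related genes in HM-1 cells, Prrx1, a homeobox factor gene of mesenchyme, was at 12.7 ± 2.02 CPM in controls and 3.28 ± 0.281 CPM under the label, and fell by 1.91 on the log2 scale (edgeR adjusted p = 0.000269), and 2 of 13 tested EMT-associated factors were lower with 0 higher. Of all genes tested in HM-1 cells, 16.1% were called lower and 11.6% higher. Mesenchymal targets were lower in 5 and higher in 2 of 14 tested. Tnc, the tenascin C gene, went from 376 ± 108 to 6.04 ± 0.357 CPM and Sparc, a matrix protein gene, from 249 ± 5.55 to 93.2 ± 3.18 CPM, while S100a4, a calcium-binding protein gene, rose from 436 ± 90.9 to 658 ± 36.7 CPM. Vim (5589 ± 324 and 4625 ± 161 CPM, edgeR adjusted p = 0.0903) and Fn1 (1277 ± 534 and 1451 ± 122 CPM, edgeR adjusted p = 0.603) were not called. Of 15 tested junction and keratin genes, 6 were lower and 1 higher, Dsp with 4.18 ± 1.51 and 0.218 ± 0.0341 CPM. Among upstream inducers, 7 of 23 tested were higher and 3 lower. Bmp2 rose from 24.3 ± 0.949 to 120 ± 8.08 CPM in HM-1 cells and fell in ID8 cells, as given above.

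The difference between the label's effects in the lines was itself tested as an interaction over the 12 culture libraries. It was called lower in ID8 for 4 of 6 factors (of all 14208 genes tested, 20.7% were called lower, 19.8% higher and 40.4% in all). The log2 difference was -1.09 for Snai1 (SE 0.15, edgeR adjusted p = 8.31e-05), -0.73 for Zeb1 (SE 0.22, edgeR adjusted p = 0.0163) and -0.72 for Zeb2 (SE 0.27, edgeR adjusted p = 0.0457). Without HM-1 control library 1 the values for Zeb1 and Zeb2 were -0.53 and -0.46 (edgeR adjusted p = 0.000106 and 0.000666). Zeb2 passed in 9 of 19 alternative analyses. For Twist2 the fitted difference, -6.92 (edgeR adjusted p = 0.000195), is no measured size, since it rests on a prior count, ID8 cells labelled Cd276KO having no read. Snai2 and Twist1 were at or next to 0 in all cultures of 1 line, so no difference of effects could be read for them.

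Tumors had more of most factors than the cultured cells of the same label. In control tumors against control HM-1 cells, 4 of 6 were higher and 0 lower (of all 14609 genes tested, 25.3% were called higher, 16.6% lower and 41.8% in all), with a median log2 fold change of 0.92 against 0.05 for all genes. Snai2 was at least 184-fold higher (580 counts against 0), or at least 106-fold without control tumor 1, which had the most. Zeb2 was higher by a log2 fold change of 1.69 (SE 0.35, edgeR adjusted p = 0.00762) and Twist1 by 0.95 (SE 0.19, edgeR adjusted p = 0.00689). Zeb1, at 0.89 (SE 0.26, edgeR adjusted p = 0.0293), lost its call without HM-1 control library 1 (0.69, edgeR adjusted p = 0.0778), HM-1 control library 3 (0.92, 0.0727), control tumor 1 (0.68, 0.0842) or control tumor 2 (0.84, 0.0970), and with the replicate numbers as a block (0.88, 0.0710). Snai1 (0.60, edgeR adjusted p = 0.0720) and Twist2 (-0.87, edgeR adjusted p = 0.0837) did not pass, but both did without control tumor 3 (0.78 and -1.32, edgeR adjusted p = 0.00628 and 0.00733). Both also passed with limma voom (adjusted p = 0.00132 and 0.000883) and with edgeR over all 18 libraries (adjusted p = 0.00328 and 0.0158), where 6 of 6 factors were called. Limma voom called 9490 of all 14609 genes tested, and the fit over 18 libraries 9974 of 16526. Snai1 passed with upper-quartile scaling too (edgeR adjusted p = 0.0360), and Twist2 with DESeq2 (adjusted p = 0.0315) and with no filter on low counts (edgeR adjusted p = 0.0309).

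In tumors labelled Cd276KO against HM-1 cells labelled Cd276KO, 5 factors were higher and 1 lower (41.2% of all 14330 genes tested were called higher, 34.5% lower and 75.7% in all). Twist2 was the lower one, with a log2 fold change of -1.23 (SE 0.14, edgeR adjusted p = 4.63e-05). Twist1 was higher by 1.11 (SE 0.11, edgeR adjusted p = 1.70e-05), Zeb2 by 0.92 (SE 0.18, edgeR adjusted p = 0.00158), Zeb1 by 0.73 (SE 0.08, edgeR adjusted p = 3.03e-05) and Snai1 by 0.50 (SE 0.08, edgeR adjusted p = 0.000331). Snai2 had 172 counts against 1, a ratio of 175 with an exact 95% counting interval of 31.0 to 6955. That ratio rests on 1 read in library 3 of the HM-1 cells labelled Cd276KO, and without that library Snai2 was at least 37.4-fold higher. These 6 calls held in all 13 alternative analyses. Upper-quartile scaling moved the median of all genes from 0.08 to 0.25 here, and from 0.05 to 0.19 in the control comparison, where it gave 4165 higher and 1701 lower genes in place of 3689 and 2418.

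Tumor libraries also held RNA of host cells, and in bulk tissue fewer cells of a type and less RNA per cell cannot be told apart. All 8 fibroblast markers were detected in both tumor groups, and their sum was 12542, 4043 and 366 CPM in control tumors 1 to 3 and 3130, 5043 and 4424 CPM in tumors labelled Cd276KO, against 125 to 174 CPM in HM-1 cultures. In HM-1 cultures only 2 of the 8 had a mean of at least 1 CPM in controls and 1 under the label. The 8 macrophage markers summed to 1083, 757 and 603 CPM in controls and 367, 681 and 546 CPM under the label, against 21.2 to 60.5 CPM in HM-1 cultures, where C1qa and C1qc were at 0. The 6 endothelial markers summed to 261, 163 and 69.8 CPM in controls and 136, 202 and 161 CPM under the label. Snai2, Zeb1, Zeb2 and Snai1 were higher in control tumor 1 than in tumor 2 and lowest in tumor 3, the order of these 3 marker sums, and Twist1 and Twist2 were highest in control tumor 3. Pericyte and smooth muscle markers also fell in order over control tumors 1, 2 and 3 (392.5, 308.9 and 170.1 CPM), and no other marker list did. Neutrophil markers summed to 26.3, 27.9 and 115 CPM there. Skeletal muscle markers summed to 122, 1.64 and 2.14 CPM in controls and 88.5, 697 and 661 CPM under the label. The part of host cells in the levels of the factors was not tested. Among mesenchymal targets, 22 of 24 tested were higher in control tumors than in control cells and 22 of 24 in tumors than in cells labelled Cd276KO. Of all genes tested, 25.3% and 41.2% were called higher in these comparisons.

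**Figure D5:**
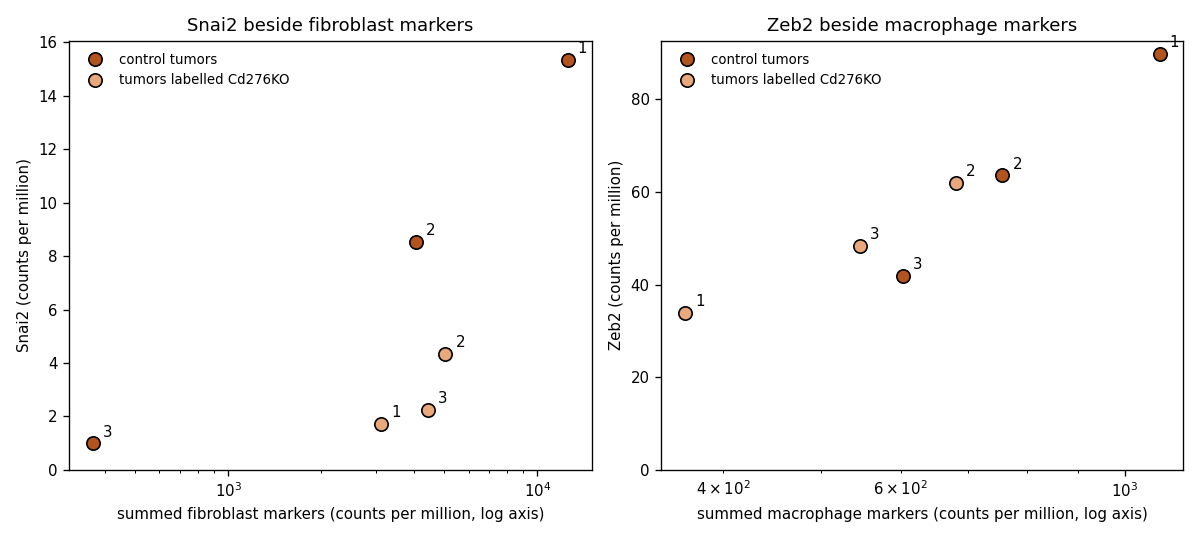
Snai2 beside the summed level of 8 fibroblast markers (left) and Zeb2 beside the summed level of 8 macrophage markers (right) in the 6 tumor libraries, numbered by replicate, all in CPM with a log horizontal axis. Control tumor 3, at 366 CPM of fibroblast markers, has the least Snai2, 0.991 CPM, and control tumor 1, with the most of both marker sums, has the most Snai2 and Zeb2. Control tumor 2 has fewer fibroblast markers (4043 CPM) than tumors 2 and 3 labelled Cd276KO (5043.5 and 4424 CPM). Its Snai2 is higher, at 8.54 CPM against 4.34 and 2.25 CPM.

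Under the Cd276KO label, none of the 6 factors was called in tumors, where 5.38% of all 15345 genes tested were, 2.2% higher and 3.18% lower. Their median log2 fold change was -0.30, against -0.03 for all genes. No factor had an unadjusted edgeR p under 0.05 other than Twist2. With limma voom 2 of 6 were called, where 3177 of all 15345 genes tested were. With DESeq2 1 of 6 was called, where 2270 of all 17177 genes tested were. Twist2 had a log2 fold change of -1.42 (SE 0.36, edgeR adjusted p = 0.0701) and groups that did not overlap, as for 34.8% of all genes tested. It passed in 5 of 13 alternative analyses, among them the fit without control tumor 3 (-0.96, edgeR adjusted p = 0.0389), the library with the most Twist2. Snai2 had -1.52 (SE 0.85, edgeR adjusted p = 0.319), or -2.02 without control tumor 3 (edgeR adjusted p = 0.0321) and -0.73 without control tumor 1 (edgeR adjusted p = 0.618). Zeb2 and Twist1 had -0.39 and -0.20 (edgeR adjusted p = 0.450 and 0.470), and Zeb2 -0.60 without control tumor 3 (edgeR adjusted p = 0.168). Snai1 and Zeb1 were at 0.027 and 0.039 (edgeR adjusted p = 0.948 and 0.922) and turned to -0.16 and -0.12 without control tumor 3.

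Control tumor 3 differed in skin genes as well. The 5 keratinocyte markers summed to 208 CPM there and to 6.94 to 7.49 CPM in the other 5 tumors, with Krt14 at 108 CPM and Krt5 at 51.4 CPM. Epcam was at 4.64 CPM in that tumor and at 0.173 to 0.468 CPM in the others, and Esrp1, an epithelial splicing factor gene, had 25 counts there and 0 in the others. Cdh1 was at 9.83, 4.97 and 13.2 CPM in control tumors and 1.78, 3.28 and 2.07 CPM under the label (log2 fold change -1.95, SE 0.45, edgeR adjusted p = 0.0561). Its groups did not overlap, as for 34.8% of all genes tested in tumors. Of all genes tested in tumors, 3.18% were called lower and 2.2% higher. Of 19 tested junction and keratin genes in tumors, 1 was lower, and of 24 tested mesenchymal targets 4 were lower and 0 higher, among them Tnc (1417 ± 436 and 271 ± 114 CPM). No gene of the table was called lower in tumors when any 1 of the 3 tumors labelled Cd276KO was left out, or with the replicate numbers as a block, so these calls were lost in each of those fits. Vim had 5041 ± 1147 and 3303 ± 266 CPM and Fn1 4086 ± 675 and 5960 ± 912 CPM, neither called (edgeR adjusted p = 0.177 and 0.109).

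The effect of the label in tumors was set against that in HM-1 cells as an interaction over 12 libraries. None of the 6 factors differed (edgeR adjusted p from 0.488 to 0.919), where 2.84% of all 15623 genes tested were called (1.72% higher and 1.12% lower), none had an unadjusted p under 0.05, and no alternative analysis called any of them. For Twist2, the factor lower in both, the difference of the log2 fold changes was -0.36 (SE 0.37, edgeR adjusted p = 0.749). Cdh1 was called, with a difference of -3.68 (SE 0.71, edgeR adjusted p = 0.0189). It had 8 counts in HM-1 controls and 24 in HM-1 cells labelled Cd276KO.

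Across the 6 group means, the genes whose pattern was most like that of each factor were taken by the root mean square difference of log2(CPM + 0.5), each gene centred on its own mean, among 11965 genes. For Snai1 this was Nudt4, with a difference of 0.072, and for Zeb1 Nucb2, with 0.11. Ldlrad4 was the closest to Zeb2 (0.17) and Arap3 to Twist1 (0.20). Snai2 and Twist2 had no gene as close, with Ifih1 at 0.32 and Camk1d at 0.33. These are descriptions over 6 groups that share their libraries' depth and host cell content.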

How the data were processed

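The 18 libraries are RNA sequencing of cultured cells and frozen tumors, 6 groups of 3, from total RNA purified with the RNeasy Mini Kit, per the labels. Trimming, alignment and counting tools are named without versions (Trim Galore, STAR, HTSeq), with the build GRCm38 (mm10), per the submitters' processing notes. The annotation and strand setting used by the authors are not stated there. The deposited table holds whole-number read counts for 54752 Ensembl genes, of which 53861 matched GENCODE M21 with their version and 54723 without it.

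Levels are CPM (count per 1000000 counts of the library), given as mean ± SD over 3 libraries, and length-scaled levels divide them by the union of a gene's exons. Differences were tested with edgeR 4.0.16 in R 4.3.3 (robust quasi-likelihood, TMM scaling, filterByExpr) on the libraries compared, or 12 libraries for interactions, with Benjamini-Hochberg adjustment over all genes tested and a threshold of 0.05. The SE is the size of the log2 fold change over the square root of F. A group at 0 counts as 3 counts over the group in a fold. Alternatives were DESeq2 1.42.0, limma 3.58.1 voom with sample quality weights, RLE and upper-quartile scaling, no filter, 1 fit over all libraries, replicate numbers as a block and leaving out each library. Comparisons that share libraries are not independent of each other. The tests were first run on simulated counts, with changes placed only in well-counted genes and no library that stood apart. That run does not speak for genes near 0 or for such libraries.

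The 6 factors and all gene lists were chosen with earlier results of these data known. Named genes were the factors, Cd276 and the readouts Cdh1, Epcam, Esrp1, Cdh2, Vim and Fn1, and per list and comparison up to 3 called genes with the largest fold change and a mean of at least 1 CPM. Crb3, the keratins and tumor marker genes were named after their values were seen.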

Additional observations from a re-analysis of the deposited data

Results flagged for a closer look

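The effect of the Cd276KO label differed between the lines, by an interaction test over 12 culture libraries, for 4 factors. Of all 14208 genes tested, 40.4% were called, 20.7% lower and 19.8% higher. Zeb2 (edgeR adjusted p = 0.0457) passed in only 9 of 19 alternative analyses. Snai2 and Twist1 could not be read, being at or next to 0 in all cultures of a line. The log2 fold change in ID8 cells minus that in HM-1 cells was -1.09 for Snai1, -0.73 for Zeb1, -0.72 for Zeb2 and a fitted -6.92 for Twist2, which had no read in ID8 cells labelled Cd276KO. Every ID8 library under the label lay below every ID8 control for these 4 genes, where groups did not overlap for 64.3% of all genes tested. In HM-1 cells, where 53.0% of genes tested did not overlap, the groups overlapped for Snai1 and Zeb1. Twist2 was lower under the label in all libraries. Zeb2 was higher in all, but only by 22.90 against 22.76 CPM at the nearest, and was not called (edgeR adjusted p = 0.304). Without HM-1 control library 1 its log2 fold change was 0.12 (edgeR adjusted p = 0.134).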

How the results depend on the processing

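Of 25 calls for the 6 factors, 22 held under all alternatives run and none reversed. The others were Zeb2 in ID8 cells, Zeb1 in control tumors against control cells and Zeb2 in the interaction of the lines, as given above. Reversed values were all of uncalled differences, and the cause was not tested. In tumors under the label, limma voom gave -0.11 for Snai1 and -0.051 for Zeb1, and leaving out 1 library gave -0.16 (without control tumor 3) to 0.19 for Snai1 and -0.12 (without control tumor 3) to 0.23 for Zeb1, which was -0.031 without tumor 2 labelled Cd276KO. In the interaction of tumors and cells, leaving out 1 library gave -0.33 to 0.095 (without control tumor 1) for Snai1, -0.015 (without HM-1 control library 1) to 0.24 for Twist1, -0.605 to 0.033 (without control tumor 3) for Twist2 and -0.37 to 0.072 (without control tumor 1) for Zeb1, which was 0.029 without HM-1 control library 1.

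Counts of called genes moved by over 1.5 times in some fits. HM-1 cells gave 3452 genes and 1 factor, and 7559 and 2 with limma voom. ID8 cells gave 7849 genes, and 4260 in 1 fit over 18 libraries. Tumors under the label gave 826 genes and 0 factors, against 2270 and 1 with DESeq2, 4001 and 1 in the 18-library fit, 3177 and 2 with limma voom, and 1 factor with no filter. Control tumors against control cells gave 6107 genes, against 9974 in the 18-library fit and 9490 with limma voom. The interaction of tumors and cells gave 443, against 885 with DESeq2, 848 in the 18-library fit and 3062 with limma voom.

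Leaving out 1 library gave these ranges of called genes and factors: 1725 to 7491 (without HM-1 control library 1) and 1 to 2 in HM-1 cells, 7115 to 7877 and 5 in ID8 cells, 0 (without tumor 2 or tumor 3 labelled Cd276KO) to 1685 (without control tumor 3) and 0 to 2 in tumors under the label, 4336 to 7072 and 3 to 6 in control tumors against cells, 10113 to 11839 and 6 in tumors against cells labelled Cd276KO, 6882 to 10604 and 5 to 6 between control lines, 225 to 913 and 0 in the interaction of tumors and cells, and 4941 to 7143 and 3 to 4 in that of the lines.

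Nothing in the labels pairs libraries by replicate number, and correlations over 3 libraries per group cannot settle it. Correlations of same-numbered deviations ran from -0.56 to 0.22. Those in ID8 cells were 0.032 to 0.093, where 5 of 6 libraries correlated best with their own number (0 to 2 of 6 in the other comparisons). This is a hint of pairing in ID8 cells from the data and not the design. With the replicate block, tumors under the label had 0 called genes in place of 826, ID8 cells 8329 in place of 7849, HM-1 cells 2469 and control tumors against cells 4694 with 3 factors in place of 4.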

Other observations

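Genes whose products set the turnover of Snail, Twist and Zeb proteins were also followed, since protein levels of these factors depend on degradation as well as on transcription. In HM-1 cells under the label, 4 of 22 tested were lower and 1 higher, where 16.1% and 11.6% of all genes tested were. Mdm2, a ubiquitin ligase gene, fell from 268 ± 28.6 to 149 ± 3.95 CPM and Pak1, a kinase gene, from 47.8 ± 1.62 to 26.9 ± 0.333 CPM, while Fbxl14, the gene of an F-box protein that targets Snail proteins, rose from 69.2 ± 2.74 to 97.7 ± 3.32 CPM. In ID8 cells, 7 of 23 tested were higher and 7 lower, against 29.4% and 31.3% of all genes tested. Prkd1, a kinase gene, rose from 0.742 ± 0.228 to 2.83 ± 0.228 CPM, Siah2, a ubiquitin ligase gene, fell from 25.3 ± 1.64 to 14.2 ± 1.46 CPM and Usp27x, a deubiquitinase gene, fell from 5.52 ± 0.654 to 2.68 ± 0.349 CPM. In tumors, where 5.38% of all genes tested were called, 1 of 23 was, Lats2, a Hippo pathway kinase gene, at 36.0 ± 3.27 CPM in controls and 21.8 ± 2.26 CPM under the label, a call lost when any 1 of the 3 tumors labelled Cd276KO was left out and with the replicate numbers as a block. RNA counts do not show protein levels.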
